A study of Mus musculus with 27 samples.

Results

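The comparison described here sets the cortex of E15.5 embryos that lack Bcl11a and Bcl11b in the Emx1 lineage (Bcl11a/b-DCKO, 3 libraries) against that of E15.5 control embryos (3 libraries), which makes 6 of the 27 libraries of the study. The libraries were chosen by age and genotype. All embryos were C57BL/6. The controls were wildtype, and the double mutants carried Emx1-Cre; Bcl11aFlox/Flox; Bcl11bFlox/Flox. Total RNA of dissected cortex was sequenced in bulk, at E13.5, E15.5 and birth, also in a Bcl11a-CKO, in which Emx1-Cre deletes Bcl11a alone. The study asked what these factors do as projection neurons of the cortex are made and mature. Control replicates 2 and 3 have the same number in their titles, one with R and one with L. They were summed as 1 unit, so the comparison has 2 control units and 3 double mutant units. The titles of the double mutant libraries carry no side letter, so side and genotype cannot be told apart. The controls carry no Cre, so the effect of Emx1-Cre itself and that of the deletions cannot be told apart either.

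Bcl11a and Bcl11b (also called Ctip1 and Ctip2) are related zinc-finger transcription factors of postmitotic neurons that work with chromatin remodelling complexes. Bcl11b is best known for its high level in the subcerebral neurons of layer 5, where it shapes axon growth to the spinal cord, and both factors are made in deep-layer neurons. Emx1-Cre acts in progenitors of the dorsal telencephalon, the source of the glutamatergic projection neurons. Interneurons, microglia and blood vessels of the same tissue arise outside that lineage and keep both genes. In bulk tissue, fewer cells of a type and less RNA per cell cannot be told apart.

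Levels are given as CPM (counts scaled to a common library size by TMM), unit by unit, and changes as the log2 fold change, double mutant minus control, ± SE. The SE was derived from the test, as the size of the log2 fold change divided by the square root of the F statistic. The 6 libraries held 4313142 to 6955612 counts. Of 14947 genes tested, 1235 rose (8.26%) and 1159 fell (7.75%) at an adjusted p of 0.05 in edgeR's quasi-likelihood test, together 16%. Counts of list and family members below are to be read beside these shares, and several lie near them. Among them 529 rose and 417 fell by at least 1 on the log2 scale, and the median over all genes tested was -0.02. The 5 units did not overlap between the groups for 48.6% of genes. On the first principal component of the E15.5 units, which carried 51.4% of the variance, the control units lay at -37.2 and -35.2, the Bcl11a-CKO units at -12.5 and -12.3, and the double mutant units between 31.3 and 33.9. Emx1, the marker of dorsal telencephalon, was found in all 5 units at 79.1 to 99.1 CPM. Nothing in the labels shows that libraries came from separate animals, and p-values therefore reflect sample-to-sample spread, part of which may be technical. The 5 sex-linked genes tested, Xist among them, summed to 255 and 2610 CPM in the control units. In the double mutant units they summed to 93.2 to 3318 CPM. The units of both groups thus differed widely in these genes, and the fit had no term for sex.

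**Figure D1:**
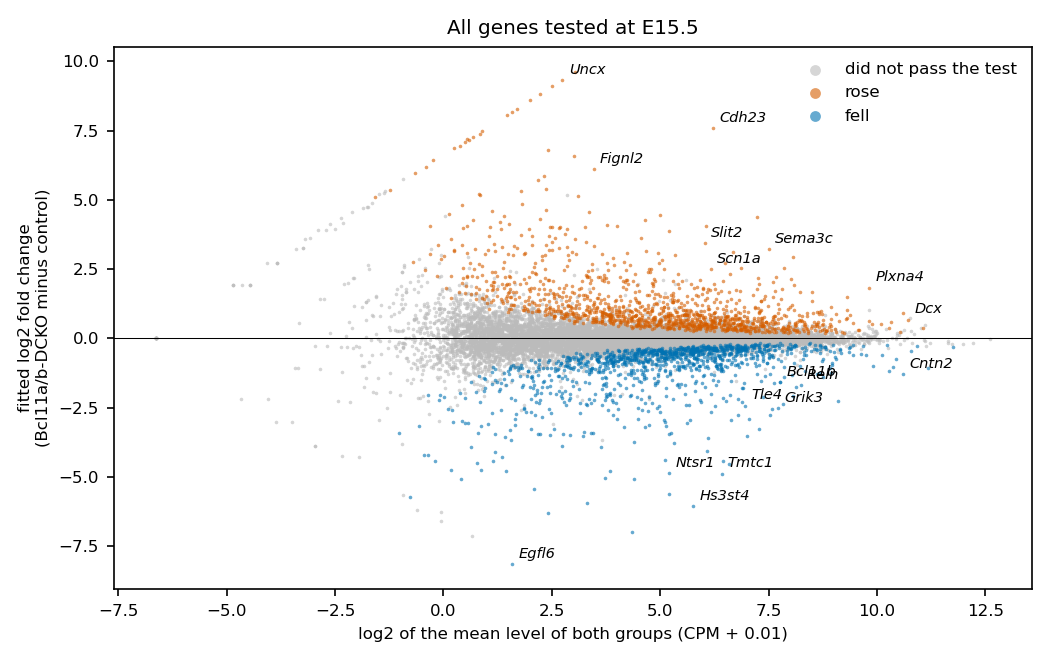
Fitted log2 fold change (double mutant minus control, vertical axis) against the log2 mean level of both groups (horizontal axis, CPM + 0.01) for all 14947 genes tested at E15.5. Orange points mark the 1235 genes that rose and blue points the 1159 that fell; the slanted line of points at the top left holds genes at 0 in both control units, whose fitted fold change is no bound.

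Of the deleted genes, Bcl11b fell and Bcl11a did not pass the test. Bcl11b (ENSMUSG00000048251, chromosome 12, 107910403 to 108003602, mm10) stood at 324 and 332 CPM in the control units and at 111, 116 and 99.96 CPM in the double mutant units (-1.59 ± 0.26, edgeR, adjusted p = 0.000674). Every double mutant unit held about 1 read for each 3 in the controls. Bcl11a (ENSMUSG00000000861, chromosome 11, 24078056 to 24174123, mm10) stood at 747 and 748 CPM against 714, 654 and 694 CPM (-0.12 ± 0.12, adjusted p = 0.563). Where the flox sites lie in each gene is not in the labels, so a count over the whole gene is no check on the loss of some exons. Bcl11a also shares exonic bases with 4930538E20Rik on the other strand, and whether the counting used strand is not stated in the labels. The counts are also uncertain for Hs3st4, Syt6, Fam84b, Kcnab1, Ephb1, Plxna1, Plxna4, Adgrl3, Reln, Lhx5, Neurod1, Ccnd2, Pou3f1, Wnt7b, Lef1, Nr2f1, Chd5, Slc32a1, Csf1r, P2ry12, Aldh1l1, Pappa2, Gm28037, Foxp1, Ppp1r1b, Eml1, Sox5, Nefm, Notch1, Notch2, Notch3, Cdk2, Cdc20, Bcl2, Sfrp2, Smarcc1, Smarcd3, Actl6a, Slc2a1 and Rora, each of which shares exonic bases with another gene. Among them Foxp1, Neurod1 and Gm28037 share bases with a gene on their own strand, where counting by strand would not settle the count.

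Genes that mark layer 6 corticothalamic neurons, which send their axons to the thalamus, had the lowest median change of the cortical cell type lists given here. Of 13 listed genes, 12 were tested. Tle4, Foxp2, Zfpm2, Sox5, Hs3st4, Syt6, Crym, Grik3, Rprm and Nfib fell, Garnl3 rose, and Tbr1 did not pass the test. The list had a median log2 fold change of -2.26, and its summed level went from 3230.0 to 3322 CPM in the control units to 1634 to 1777 CPM in the double mutant units. Without control replicate 1, Garnl3 (adjusted p = 0.282) and Nfib (adjusted p = 0.0992) did not pass edgeR's test. A call lost when a library or unit was left out is given throughout with the omission that raised its adjusted p most, and other omissions ended some of these calls too.

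Hs3st4, an enzyme that sulfates heparan sulfate chains, stood at 98.7 and 116 CPM in the control units and at 1.70, 1.63 and 1.43 CPM in the double mutant units (-6.07 ± 0.46, edgeR, adjusted p = 2.66e-06). The groups lie far apart, with no unit of the double mutant above 2 CPM. Ntsr1, the neurotensin receptor whose Cre line is used to label corticothalamic neurons, was not on the list but was among the 12 genes that fell most. It stood at 65.0 and 77.5 CPM against 2.76, 2.22 and 2.32 CPM (-4.88 ± 0.23, adjusted p = 1.3e-08). Zfpm2 (Fog2), a transcriptional cofactor of corticothalamic neurons, stood at 67.0 and 71.4 CPM against 4.89, 5.48 and 8.93 CPM (-3.42 ± 0.21, adjusted p = 7.31e-08). Tle4, a corepressor of the Groucho family, went from 188 and 231 CPM to 40.4, 40.1 and 36.2 CPM (-2.43 ± 0.14, adjusted p = 4.29e-08). Rprm, a marker of layer 6 and of the subplate, went from 181 and 182 CPM to 37.4, 43.2 and 38.6 CPM (-2.19 ± 0.12, adjusted p = 3.3e-08). For each of these genes all 3 double mutant units lay below both control units, as did those of 25.8% of all genes tested. For Hs3st4 and Ntsr1 this was a condition for entry among the 12 genes that fell most. Called genes given with values, here and below, were chosen by this same test, so such separation is no further result.

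The Bcl11a-CKO at the same age lay between the groups for most of these genes. Mean levels in it were 72.03 CPM for Hs3st4, 30.8 for Ntsr1, 42.4 for Zfpm2, 93.7 for Tle4 and 102 for Rprm (n = 2 units). The double mutant was lower than the Bcl11a-CKO for all of them, by -5.49 for Hs3st4 (edgeR, adjusted p = 1.58e-05), -3.65 for Ntsr1 (adjusted p = 5.07e-07), -2.72 for Zfpm2 (adjusted p = 1.85e-06), -1.26 for Tle4 (adjusted p = 6.22e-05) and -1.36 for Rprm (adjusted p = 7.02e-06). Over all genes, 5.41% differed between these mutants, 2.69% higher and 2.72% lower in the double mutant. Tbr1, the T-box factor required for layer 6 identity, stood apart from the rest of the list. Its units overlapped, at 434 and 425 CPM against 442, 385 and 359 CPM (-0.12 ± 0.14, adjusted p = 0.651).

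**Figure D2:**
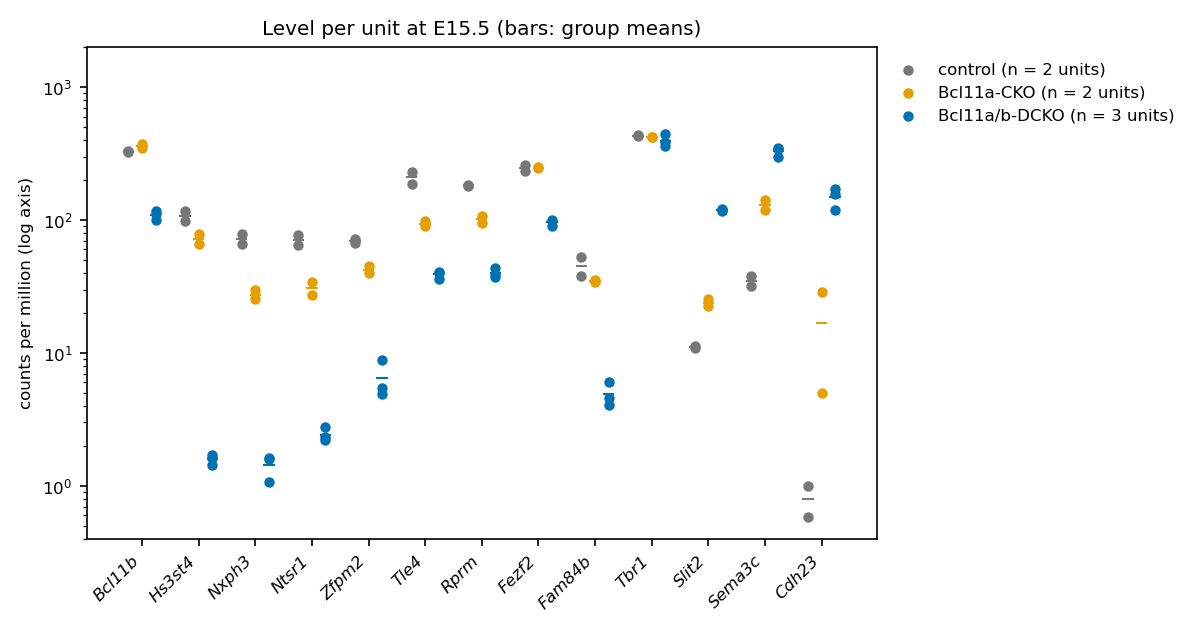
Level of 13 genes in each E15.5 unit (points, CPM on a log axis), with short bars for group means, in control (grey, n = 2), Bcl11a-CKO (orange, n = 2) and Bcl11a/b-DCKO (blue, n = 3). Hs3st4, Nxph3 and Ntsr1 lie below 3 CPM in the double mutant, Tbr1 overlaps, and Slit2, Sema3c and Cdh23 lie above both other groups.

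Layer 5 markers moved both ways. Of 13 tested, Fezf2, Fam84b, S100a10 and Npr3 fell and Ldb2 and Pcp4 rose, with a median of -0.57. Fezf2, the selector gene of subcerebral neurons, stood at 257 and 235 CPM against 89.95, 97.9 and 99.8 CPM (-1.36 ± 0.11, edgeR, adjusted p = 1.56e-06). Fam84b (Lratd2) stood at 52.6 and 37.6 CPM against 4.04, 4.59 and 6.07 CPM (-3.18 ± 0.30, adjusted p = 6.28e-06). Pcp4, a calmodulin-binding peptide of deep-layer neurons, went the other way, from 12.2 and 16.6 CPM to 48.7, 48.0 and 35.3 CPM (1.59 ± 0.28, adjusted p = 0.00123). Ldb2, a cofactor of LIM-domain proteins, rose by 0.90 ± 0.16 (adjusted p = 0.00143). No unit of either group crossed into the other for these 4 genes, as was so for 48.6% of all genes tested. Leaving out the summed control unit ended the edgeR call of S100a10 (adjusted p = 0.0871).

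The subplate, the transient layer under the cortical plate, gave a similar mixture, with 4 of 8 tested genes lower and 1 higher (median -0.48). Nr4a2 (Nurr1), an orphan nuclear receptor, stood at 32.2 and 30.7 CPM against 12.3, 8.59 and 8.39 CPM (-1.70 ± 0.26, edgeR, adjusted p = 0.000429). Lpar1, a receptor for lysophosphatidic acid, stood at 34.0 and 32.5 CPM against 17.0, 17.8 and 14.1 CPM (-1.03 ± 0.15, adjusted p = 0.000278). Both had means in the Bcl11a-CKO close to the double mutant, 8.14 and 16.4 CPM, and no difference between the mutants passed the test (0.23, adjusted p = 0.82 for Nr4a2 and -0.01, adjusted p = 0.999 for Lpar1). Kcnab1 and Abca8a fell too, by -2.31 ± 0.45 and -3.52 ± 0.58, and Nxph4, a neurexophilin, rose by 0.80 ± 0.13.

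Among markers of callosal and upper-layer neurons, 7 of 18 rose and 3 fell (median 0.27). Pou3f1 (Oct6), a POU factor, stood at 85.7 and 95.1 CPM against 251, 229 and 257 CPM (1.44 ± 0.27, edgeR, adjusted p = 0.00199). Lhx2, a LIM-homeodomain factor, stood at 338 CPM in both control units against 507, 547 and 543 CPM (0.66 ± 0.12, adjusted p = 0.00165). Unc5d, Lmo4, Bhlhe22, Dkk3 and Cdh10 rose as well. The 3 that fell include Rorb, a nuclear receptor of layer 4 (26.8 and 36.6 CPM against 9.36, 6.52 and 6.78 CPM, -2.09 ± 0.23, adjusted p = 2.44e-05), and Mef2c, a MADS-box factor (109 and 174 CPM against 34.0, 30.4 and 31.4 CPM, -2.16 ± 0.24, adjusted p = 2.69e-05). The list therefore split, and 3 rose without control replicate 1. In edgeR the call of Bhlhe22 (adjusted p = 0.14), Cdh10 (adjusted p = 0.0659) and Lmo4 (adjusted p = 0.0626) was lost without control replicate 1. Without the summed control unit, Unc5d (adjusted p = 0.23) did not pass edgeR's test.

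Of the 9 markers of Cajal-Retzius neurons, the early-born cells of the marginal zone, 3 fell and 1 rose (median -0.78). Reln, the secreted glycoprotein that guides layering, stood at 449 and 478 CPM against 121, 153 and 156 CPM (-1.70 ± 0.14, edgeR, adjusted p = 1.44e-06). Dab1, the adaptor that carries the reelin signal inside migrating neurons, went from 411 and 453 CPM to 124, 126 and 132 CPM (-1.76 ± 0.09, adjusted p = 3.3e-08). Both were about a log2 unit and more below the controls, with no overlap, which 48.6% of all genes tested shared. Lhx5 and Ebf3 fell, at low levels, and Nhlh2 rose by 1.09 ± 0.16. Leaving out control replicate 1 ended the edgeR call of Ebf3 (adjusted p = 0.27).

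General neuronal genes also moved both ways. Of 19 listed, 7 fell (Tubb3, Snap25, Syt1, Gap43, Nefm, Slc17a7 and Camk2b) and 4 rose (Rbfox3, Dcx, Slc17a6 and Elavl4), and 2 rose without the summed control unit. The vesicular glutamate transporters went in opposite directions. Slc17a7 (VGLUT1), which prevails in mature cortical neurons, went from 92.3 and 75.3 CPM to 28.7, 28.3 and 24.1 CPM (-1.63 ± 0.18, edgeR, adjusted p = 1.77e-05). Slc17a6 (VGLUT2), which prevails in young neurons and in the thalamus, went from 45.6 and 49.3 CPM to 129.5, 118 and 107 CPM (1.31 ± 0.13, adjusted p = 1.01e-05). Snap25, a protein of synaptic vesicle fusion, fell by -1.79 ± 0.23, and Dcx, a microtubule protein of migrating neurons, rose by 0.68 ± 0.17. Leaving out the summed control unit ended the edgeR call of Dcx (adjusted p = 0.0984), Elavl4 (adjusted p = 0.0568), Syt1 (adjusted p = 0.115) and Tubb3 (adjusted p = 0.0704).

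Markers of intermediate progenitors, the neurogenic cells of the subventricular zone, rose more often than they fell. Of 12 tested, Eomes, Neurod1, Insm1, Dll3, Mfng and Sstr2 rose and Neurog1 fell (median 0.36). Eomes (Tbr2), which defines these cells, stood at 229 and 221 CPM against 426, 397 and 355 CPM (0.80 ± 0.13, edgeR, adjusted p = 0.000566). Neurod1, a proneural factor of their neuronal progeny, stood at 51.4 and 41.5 CPM against 147, 165 and 130.0 CPM (1.68 ± 0.15, adjusted p = 2.96e-06). For both the double mutant units were all higher, as they were for 22.8% of all genes tested. Without control replicate 1, Neurog1 (adjusted p = 0.219) did not pass edgeR's test. Leaving out the summed control unit ended the edgeR call of Dll3 (adjusted p = 0.0983).

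Of 16 radial glia markers, Nes, Notch1, Notch2 and Ptprz1 fell, 0 rose and 12 did not pass the test (median -0.29). The 4 became 2 without control replicate 1, double mutant replicate 2 or the summed control unit. Of 28 cell cycle genes, Cdk1, Cdk2, Ccnb1, Ccnb2, Ccnd2, Bub1 and Cdc20 fell and 0 rose (median -0.37). In 24 of these 28 genes all double mutant units lay below both control units, where 25.8% of all genes tested did so. Ccnd2, a cyclin of cortical progenitors, stood at 654 and 638 CPM against 365, 358 and 327 CPM (-0.88 ± 0.12, edgeR, adjusted p = 0.000115). The number of cell cycle genes that fell ranged from 2 to 18 over the alternative settings, so the count depends on the setting more than the median does (-0.43 to -0.32). It was 2 without control replicate 1, 2 without double mutant replicate 2 and 3 without the summed control unit. Of 16 tested genes of the p53 pathway and apoptosis, Cdkn1a, Sesn2 and Phlda3 rose and Zmat3 and Bcl2 fell, and 0 rose without the summed control unit. Cdkn1a, the p21 inhibitor of cyclin-dependent kinases, rose from 6.00 and 4.80 CPM to 9.36, 12 and 9.10 CPM (0.93 ± 0.20, adjusted p = 0.00458). Without control replicate 1, Bub1 (adjusted p = 0.151), Ccnb2 (adjusted p = 0.204), Cdc20 (adjusted p = 0.214), Cdk1 (adjusted p = 0.143), Cdk2 (adjusted p = 0.237), Nes (adjusted p = 0.202) and Sesn2 (adjusted p = 0.177) did not pass edgeR's test. Leaving out the summed control unit ended the edgeR call of Cdkn1a (adjusted p = 0.0936), Notch1 (adjusted p = 0.0939), Phlda3 (adjusted p = 0.287) and Zmat3 (adjusted p = 0.17).

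**Figure D3:**
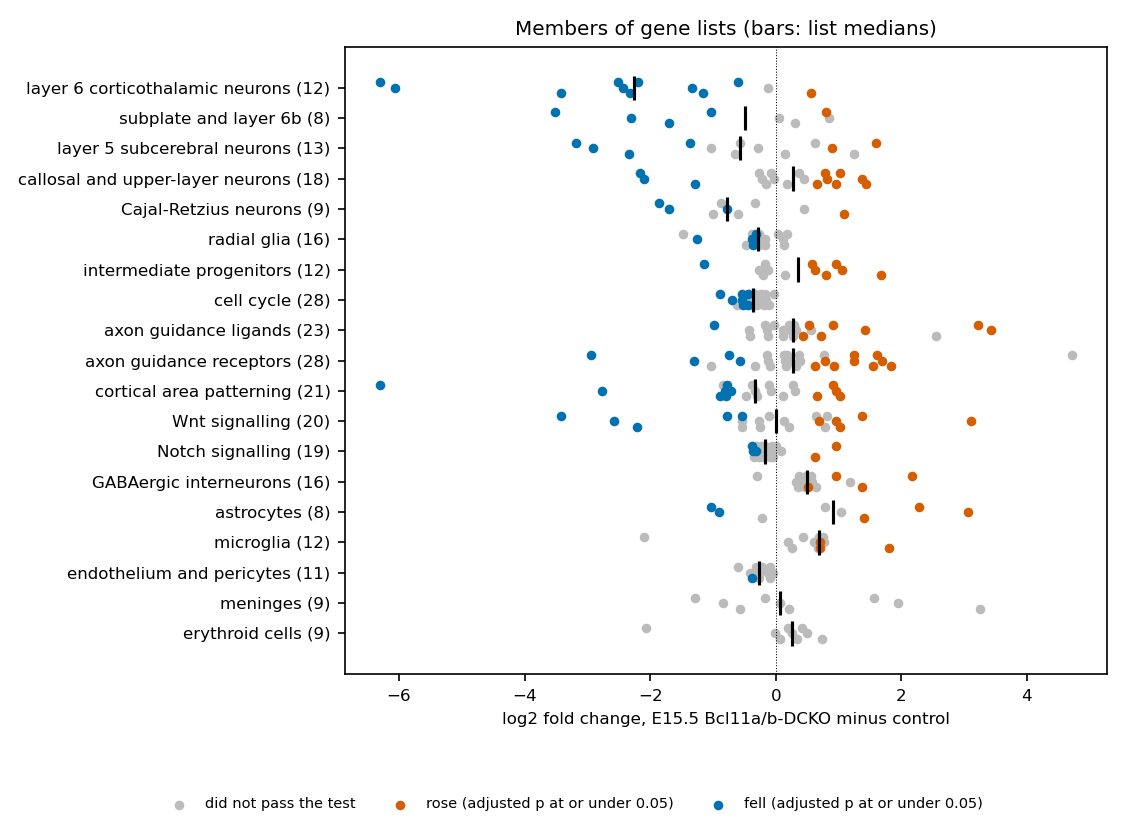
Log2 fold change (double mutant minus control, horizontal axis) of each tested member of 19 gene lists, with the number of members in brackets and a black bar at the list median. Orange points rose and blue points fell at an adjusted p of 0.05. The corticothalamic list has its median at -2.26, while the cell cycle genes crowd just below 0.

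Of 23 secreted and membrane-bound axon guidance cues tested, Slit2, Sema3c, Sema3d, Efna2, Efnb2, Efnb3 and Flrt2 rose, Draxin fell and 15 did not pass the test (median 0.28). Slit2, the repellent ligand of Robo receptors, stood at 10.8 and 11.2 CPM in the control units and at 119.9, 120.1 and 117 CPM in the double mutant (3.43 ± 0.11, edgeR, adjusted p = 5.48e-10), the smallest p of all genes tested. Sema3c, a secreted semaphorin that attracts callosal axons, stood at 31.8 and 38.0 CPM against 349, 339.9 and 297 CPM (3.22 ± 0.26, adjusted p = 1.5e-06). Flrt2, which repels neurons that carry Unc5 receptors, went from 114 and 102 CPM to 205, 185 and 219 CPM (0.92 ± 0.14, adjusted p = 0.000451). The units of each group lay close together beside the distance between the groups, but these genes were named because they passed the test. The Bcl11a-CKO had means of 23.9 CPM for Slit2 and 129.9 CPM for Sema3c, and both were higher in the double mutant (2.32, adjusted p = 1.85e-08, and 1.34, adjusted p = 0.00303). Leaving out control replicate 1 ended the edgeR call of Efna2 (adjusted p = 0.101). Call losses in edgeR without the summed control unit were those of Draxin (adjusted p = 0.0945) and Sema3d (adjusted p = 0.275).

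Of 28 receptors tested, 9 rose and 4 fell (median 0.28). Plxna4, a plexin that transduces semaphorin signals, stood at 379 and 414 CPM against 1543, 1395 and 1294 CPM (1.83 ± 0.22, edgeR, adjusted p = 5.41e-05). Plxna2 stood at 1117 and 1028 CPM against 1995, 2018 and 2081 CPM (0.92 ± 0.14, adjusted p = 0.000289). Unc5b, a receptor of netrin and Flrt proteins, stood at 27.8 and 33.1 CPM against 85.1, 87.4 and 109.8 CPM (1.62 ± 0.15, adjusted p = 3.91e-06). Unc5d, Nrp2, Ephb2, Ephb3, Adgrl3 and Dscam rose too. Dcc, Plxna1, Ephb1 and Cntn2 fell. Ephb1, an ephrin receptor tyrosine kinase, went from 87.1 and 96.4 CPM to 13.4, 13.8 and 8.57 CPM (-2.94 ± 0.15, adjusted p = 2e-08), and its mean in the Bcl11a-CKO, 86.9 CPM, lay near the control. Over the whole families, 5 of 8 tested plexins rose and 1 fell, and 6 of 20 semaphorins rose and 0 fell. The 6 semaphorins became 3 without the summed control unit, and 1 semaphorin fell without double mutant replicate 1 or control replicate 2. The receptors became 6 that rose and 2 that fell without the summed control unit. Without control replicate 1, Cntn2 (adjusted p = 0.0671) did not pass edgeR's test. Leaving out the summed control unit ended the edgeR call of Dcc (adjusted p = 0.0833), Dscam (adjusted p = 0.0652) and Ephb2 (adjusted p = 0.0618).

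Of 15 cadherins tested, Cdh4, Cdh10, Cdh22 and Cdh23 rose and Cdh2, Cdh6 and Cdh11 fell (median -0.26), and 2 rose without control replicate 1. The call of Cdh22 was lost with 5 different libraries or units left out, with an adjusted p in edgeR of up to 0.278 (without control replicate 3). Cdh23, a cadherin best known from the tip links of hair cells, stood at 1.00 and 0.585 CPM in the control units against 118, 170.2 and 157 CPM (7.60 ± 0.74, edgeR, adjusted p = 7.62e-06). It rested on 10 counts in the control group and 2586 in the double mutant. Cdh4 (R-cadherin) stood at 119.9 and 106 CPM against 443, 423 and 415 CPM (1.92 ± 0.13, adjusted p = 2.61e-07). Cntn2 (TAG-1), an adhesion molecule of corticofugal axons, was among the most abundant genes that fell, from 2282 and 2134 CPM to 823, 1049 and 822 CPM (-1.30 ± 0.32, adjusted p = 0.0111). All 5 contactins tested were lower in every double mutant unit, as were 25.8% of all genes. Of the 5, 2 passed the test, and 1 did so without control replicate 1 or the summed control unit.

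Ion channel families moved both ways. Of 62 potassium channel subunits tested, 16 fell and 7 rose (median 0.08), and of 21 calcium channel subunits 6 fell and 0 rose (median -0.25). Over all genes tested 7.75% fell and 8.26% rose. Of 10 sodium channel subunits 2 rose and 1 fell (median 0.45). Cacna1e, the pore of R-type calcium channels, stood at 374 and 394 CPM against 69.5, 77.9 and 76.4 CPM (-2.36 ± 0.29, edgeR, adjusted p = 5.29e-05). Scn1a, the sodium channel Nav1.1, went up from 22.6 and 20.4 CPM to 124, 117 and 125 CPM (2.51 ± 0.29, adjusted p = 3.81e-05). Of 24 glutamate receptor genes, 7 rose and 5 fell. The 5 became 2 without control replicate 1, without double mutant replicate 2 or without the summed control unit, and 3 without double mutant replicate 1. Grik3, a kainate receptor also on the corticothalamic list, stood at 378 and 339.5 CPM against 52.3, 68.9 and 67.3 CPM (-2.51 ± 0.48, adjusted p = 0.00235), and Grm4, a presynaptic metabotropic receptor, at 0.801 and 1.99 CPM against 17.0, 29.9 and 31.4 CPM (4.10 ± 0.54, adjusted p = 0.000115).

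Signalling and patterning lists were split as well. Of 20 Wnt pathway genes tested, Wnt7b, Lef1, Nkd1, Sfrp2 and Dkk3 rose and Wnt7a, Rspo3, Frzb, Fzd7 and Fzd10 fell (median 0.01). Nkd1, a target and inhibitor of Wnt signalling, stood at 21.2 and 21.3 CPM against 189.7, 191 and 169 CPM (3.11 ± 0.18, edgeR, adjusted p = 4.29e-08). Rspo3, a secreted Wnt amplifier, went from 40.6 and 40.7 CPM to 4.25, 4.89 and 11.2 CPM (-2.58 ± 0.35, adjusted p = 0.000149). It is also 1 of 4 tested genes on a list for hippocampus and cortical hem. That list summed to 194 to 210.5 CPM in the control units and to 46.4 to 275.7 CPM in the double mutant units. The part of the dissected region in these values was not tested. Of 21 area patterning genes, 4 rose and 7 fell. The 4 became 2 without control replicate 1, and the 7 became 4 without the summed control unit. Nr2f1 (COUP-TFI), which gives the cortex its caudal character, rose from 278 and 186 CPM to 393, 457 and 459 CPM (0.92 ± 0.16, adjusted p = 0.00128). Of 19 Notch pathway genes, Dll3 and Mfng rose and Notch1, Notch2 and Notch3 fell. Without control replicate 1, 1 gene of the Wnt list and 1 of the Notch list fell. In edgeR the call of Frzb (adjusted p = 0.136), Fzd10 (adjusted p = 0.157), Fzd7 (adjusted p = 0.0892), Notch3 (adjusted p = 0.127) and Wnt7a (adjusted p = 0.0561) was lost without control replicate 1. Without the summed control unit, Wnt7b (adjusted p = 0.124) did not pass edgeR's test.

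Bcl11 proteins associate with the NuRD and BAF chromatin complexes, of whose subunits 12 of 15 NuRD genes and 21 of 26 BAF genes did not pass the test. Of all genes tested 16% passed, so both counts lie near the share of all genes. In NuRD, Chd3, Chd5 and Mta3 changed, of which Chd3 and Chd5 are alternative remodelling subunits. Chd3 went from 1815 and 1770.0 CPM to 889, 842 and 869 CPM (-1.05 ± 0.14, edgeR, adjusted p = 0.000171). Chd5 went from 86.3 and 95.3 CPM to 216, 228 and 247 CPM (1.34 ± 0.17, adjusted p = 8.24e-05). Their paralog Chd4, with 650.1 and 626 CPM against 705, 691 and 650.1 CPM, did not pass the test (0.10 ± 0.07, adjusted p = 0.402), and was named after its values were seen. Mta3 fell. In BAF, Bcl7c rose by 0.80 ± 0.09, and Smarcc1, Smarcd2, Smarcd3 and Actl6a fell, 4 genes that became 2 without control replicate 1, without double mutant replicate 2 or 3, or without the summed control unit. Leaving out control replicate 1 ended the edgeR call of Actl6a (adjusted p = 0.177). Leaving out the summed control unit ended the edgeR call of Mta3 (adjusted p = 0.135) and Smarcd2 (adjusted p = 0.112).

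Markers of cells other than cortical projection neurons moved with the genotype in part. Of 16 tested genes of GABAergic interneurons, 4 rose, among them Slc32a1 and Sst, and 0 fell (median 0.50), and 14 of the 16 were higher in every double mutant unit, as were 22.8% of all genes tested. The 4 became 1 without control replicate 1, 2 without double mutant replicate 2 or the summed control unit, and 8 in fits of fewer groups. Their summed level was 511 to 552 CPM in the control units and 902 to 1004 CPM in the double mutant units. Microglial markers summed to 94.5 to 99.3 CPM against 142 to 158 CPM, with P2ry12, Csf1r and Fcrls higher and 0 lower of 12 (median 0.68). Aldh1l1, Aqp4 and Gfap rose and Aldoc and Sparcl1 fell among 8 astrocyte markers. Of 9 genes tested for the meninges, 9 for erythroid cells and 8 for the oligodendrocyte lineage 0 passed the test, and Slc2a1 alone fell of 11 for vessels. Thalamic markers, which would mark a dissection that reached below the cortex, were at 76.7 to 88.4 CPM in sum against 149.6 to 167 CPM, with Lhx9, Slc17a6 and Rora higher and Cdh6 lower of 6. Slc17a6, also on the general neuronal list with its levels given above, made up most of each sum. Of 9 striatal genes, Ebf1 and Meis2 rose and Foxp1, Ppp1r1b and Drd1 fell. The part of these cell types in the neuronal results was not tested. In edgeR the call of Gfap (adjusted p = 0.136), P2ry12 (adjusted p = 0.188), Slc2a1 (adjusted p = 0.12) and Slc32a1 (adjusted p = 0.201) was lost without control replicate 1. Call losses in edgeR without the summed control unit were those of Aqp4 (adjusted p = 0.143), Drd1 (adjusted p = 0.0854), Sparcl1 (adjusted p = 0.0517) and Sst (adjusted p = 0.0737).

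The 12 genes that rose most included 8 with no count in either control unit: 4930465M20Rik, Uncx, Esrrb, Gm15208, Tac2, Apob, Cldn1 and Bves. Their fold is a lower bound, set against 3 counts over the control group. The lincRNA gene 4930465M20Rik stood at 17.2, 17.0 and 14.99 CPM in the double mutant and was at least 74.1-fold higher. Uncx, a homeobox factor of the somites and midbrain, stood at 12.8, 12.6 and 14.8 CPM and was at least 60.3-fold higher, with 0 counts in the Bcl11a-CKO as well. Esrrb, an orphan nuclear receptor of pluripotent cells, was at least 51.9-fold higher, and Tac2, a tachykinin precursor, at least 36.8-fold. Nr0b1 (DAX1), another orphan receptor, had 2 counts in the controls against 275, a ratio of 109 (95% counting interval 29.9 to 906). Fignl2, an AAA ATPase, stood at 0.200 and 0.351 CPM against 22.1, 22.1 and 21.2 CPM (6.11 ± 0.31, edgeR, adjusted p = 1.95e-08). Scube2, a secreted factor that releases hedgehog proteins, and Cdh23 complete the 12. That every double mutant unit lay above both control units was a condition for entry among the 12, so it is no further result.

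The 12 that fell most were Egfl6, Gm28037, Crym, Hs3st4, Hs3st3b1, Nxph3, Mctp1, Pappa2, Jakmip3, Tmtc1, Ntsr1 and Npas2. Egfl6, a secreted matrix protein, had 0 counts in the double mutant against 6.41 and 5.50 CPM in the controls and was at least 33.2-fold lower. Nxph3, a neurexophilin of layer 6b, went from 78.1 and 66.2 CPM to 1.06, 1.63 and 1.61 CPM (-5.60 ± 0.36, edgeR, adjusted p = 1.45e-07). Tmtc1, an O-mannosyltransferase of cadherins, went from 156 and 175 CPM to 5.53, 4.89 and 6.43 CPM (-4.88 ± 0.32, adjusted p = 1.52e-07). Hs3st3b1, another enzyme of the Hs3st4 family, had 24.02 and 14.99 CPM against 0.638, 0 and 0.357 CPM (-5.93 ± 0.67, adjusted p = 2.7e-05). Crym, a thyroid hormone-binding protein of deep layers, had 165 counts in the controls and 2 in the double mutant, a ratio of 104 (95% counting interval 28.3 to 866), with control units of 4.203 and 16.9 CPM. Gm28037 shares exonic bases with Zbtb11 and Rpl24 on its own strand and is uncertain. In edgeR the call of Gm28037 (adjusted p = 0.118) was lost without control replicate 1.

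Of these 24 genes, 19 have an entry in the RefSeq promoter table (GRCm38.p6, 250 bases before to 50 after the gene start). The windows of the 2 genes with an entry that rose most and of the 2 that fell most are shown because they belong to the genes with the largest fitted changes. They were searched for TGACCA, a core motif described for Bcl11a binding, on both strands, and matches would be in capitals. They lie at chr12:107735439-107735738 (minus strand), chr5:139543648-139543947 (plus), chrX:166585667-166585966 (minus) and chr7:123982578-123982877 (plus), in the order printed, each 5′ to 3′ on the strand of its gene.
4930465M20Rik: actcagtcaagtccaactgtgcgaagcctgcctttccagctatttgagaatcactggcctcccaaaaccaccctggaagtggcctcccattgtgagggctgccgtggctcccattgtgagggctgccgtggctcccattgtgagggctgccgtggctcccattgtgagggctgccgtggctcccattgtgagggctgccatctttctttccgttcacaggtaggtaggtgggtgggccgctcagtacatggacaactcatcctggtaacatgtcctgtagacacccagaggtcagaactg
Uncx: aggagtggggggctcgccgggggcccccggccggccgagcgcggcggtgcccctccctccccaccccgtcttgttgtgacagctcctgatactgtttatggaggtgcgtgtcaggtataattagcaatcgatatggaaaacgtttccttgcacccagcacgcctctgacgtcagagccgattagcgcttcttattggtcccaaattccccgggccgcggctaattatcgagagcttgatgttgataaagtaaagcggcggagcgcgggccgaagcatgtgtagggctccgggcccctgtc
Egfl6: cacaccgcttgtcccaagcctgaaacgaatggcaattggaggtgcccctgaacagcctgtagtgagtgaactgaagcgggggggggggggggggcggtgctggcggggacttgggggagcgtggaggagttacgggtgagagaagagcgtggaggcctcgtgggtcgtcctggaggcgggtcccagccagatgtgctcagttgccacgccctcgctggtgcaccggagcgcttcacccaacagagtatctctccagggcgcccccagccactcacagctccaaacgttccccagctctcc
Hs3st4: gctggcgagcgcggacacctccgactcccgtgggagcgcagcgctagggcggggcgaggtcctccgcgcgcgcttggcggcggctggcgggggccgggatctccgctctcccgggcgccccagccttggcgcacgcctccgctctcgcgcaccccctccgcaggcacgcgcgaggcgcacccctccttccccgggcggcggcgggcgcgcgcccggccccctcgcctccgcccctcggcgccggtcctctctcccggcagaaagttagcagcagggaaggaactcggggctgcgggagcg

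None of the 4 windows holds the motif. Of all 32851 windows in the table, 13.6% hold it on either strand. Of the tested genes with a window, it was found for 14% of 895 that rose, 9.75% of 851 that fell and 12.6% of 10494 in all. The windows differ in base composition, with a GC content of 57.7% for 4930465M20Rik, 60.7% for Uncx, 65.3% for Egfl6 and 79.3% for Hs3st4, against a median of 52.7% over the table.

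The lincRNA genes 4930465M20Rik (chromosome 12, 107723740 to 107735496) and Gm15208 (107744136 to 107784041) lie downstream of Bcl11b on the same strand, 174906 and 126361 bases from it. Gm15208 stood at 0 CPM in both control units and at 8.93, 7.70 and 11.6 CPM in the double mutant, at least 42.1-fold higher. Both were also found in the Bcl11a-CKO, at means of 4.09 and 3.27 CPM. They were found in the E13.5 controls too, at means of 1.08 and 0.70 CPM, against 5.31 and 3.11 CPM in the E13.5 double mutant. Within 500 kb of Bcl11b 8 other genes were tested, of which 4 changed, against 16% of all genes. On the upstream side Ccdc85c rose by 0.86 ± 0.13 (edgeR, adjusted p = 0.00045) and Eml1, a microtubule-binding protein of radial glia, fell by -1.003 ± 0.12 (adjusted p = 3.45e-05). The other 4 did not pass the test. Ccdc85c and Eml1 were named after their values were seen.

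**Figure D4:**
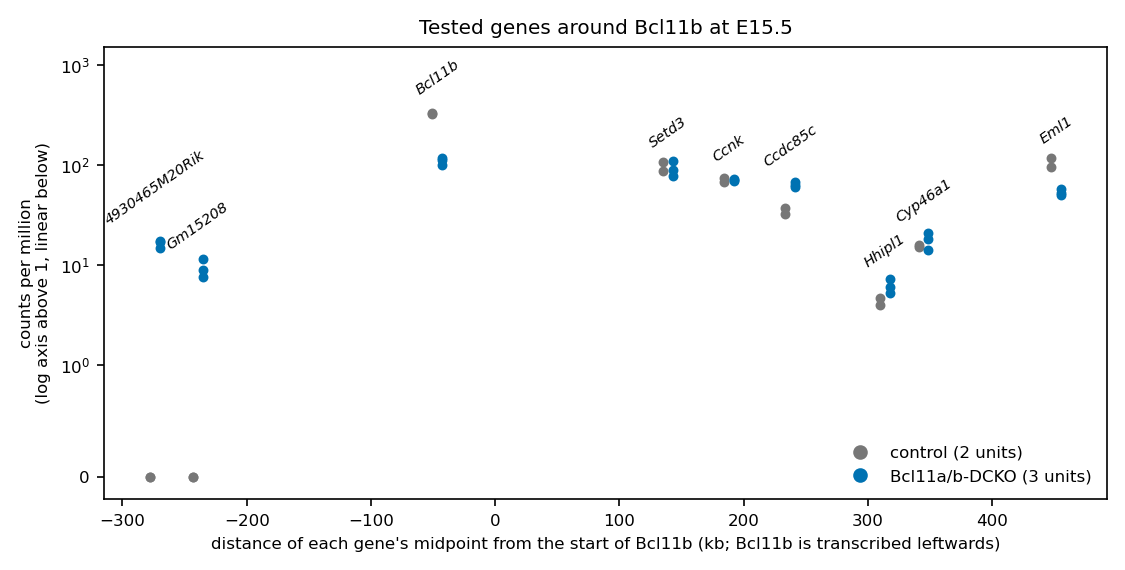
Level in each unit (CPM, log axis above 1 and linear below) of the 9 tested genes within 500 kb of Bcl11b, against the distance of their midpoint from its start (kb). Grey points are the 2 control units and blue points the 3 double mutant units; the 2 lincRNA genes on the left are at 0 in the controls, and Bcl11b itself falls from above 300 to near 100 CPM.

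The double mutant effect at E15.5 was set against that at E13.5 in the same model, where control and Bcl11a/b-DCKO had 3 units each. The effects differed for 3.87% of all genes, 309 (2.07%) with a higher and 270 (1.81%) with a lower value at E15.5. At E13.5 alone 7.05% of genes changed, 3.81% up and 3.24% down. Among the 2394 genes called at E15.5 they differed for 488, or 20.4%. Those genes were chosen by the E15.5 effect, which also enters the difference, so a share above that of all genes follows in part from the choice. Guidance genes gave some of the clearest cases. Slit2 had means of 40.5 and 46.7 CPM at E13.5 in control and double mutant, and of 11.0 and 119 CPM at E15.5, a difference between the effects of 3.22 ± 0.14 (edgeR, adjusted p = 2.43e-08). Its control level was therefore lower at the later age while the mutant level was higher. Flrt2 went from 83.3 to 43.5 CPM with the deletion at E13.5 and from 108 to 203 CPM at E15.5 (difference 1.85 ± 0.19, adjusted p = 9.7e-05). Ephb1 had 18.7 and 32.8 CPM at E13.5 against 91.7 and 11.9 CPM at E15.5 (difference -3.75 ± 0.20, adjusted p = 2.16e-07). Flrt2 fell and Ephb1 rose in the E13.5 test as well (-0.94, adjusted p = 0.000509, and 0.81, adjusted p = 0.00209), so both changed sign between the ages. Plxna4 rose at both, and its difference of 0.99 ± 0.28 did not pass the test (adjusted p = 0.0701).

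Among deep-layer genes the effects differed for Tle4 (61.0 and 66.1 CPM at E13.5, difference -2.55 ± 0.18, edgeR, adjusted p = 2.72e-06), Rprm (-1.77 ± 0.16, adjusted p = 2.06e-05), Zfpm2 (-1.81 ± 0.28, adjusted p = 0.00187) and Fezf2 (-0.60 ± 0.15, adjusted p = 0.0439). Pcp4 changed sign, from 13.1 and 2.99 CPM at E13.5 to 14.4 and 44.0 CPM at E15.5 (difference 3.73 ± 0.43, adjusted p = 0.000196). Ntsr1, at 4.53 and 0.398 CPM at E13.5, was already lower there, and its difference of -1.41 ± 0.63 did not pass the test (adjusted p = 0.293). Of the 24 genes with the largest changes, 3 that rose (Bves, Uncx and Gm15208) and 2 that fell (Hs3st3b1 and Tmtc1) had a different effect at the earlier age. The 24 were also chosen by E15.5 values that enter the difference. Uncx stood at 4.25 CPM in the E13.5 control and 21.7 CPM in the E13.5 double mutant, and Tmtc1 at 8.31 and 2.53 CPM.

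**Figure D5:**
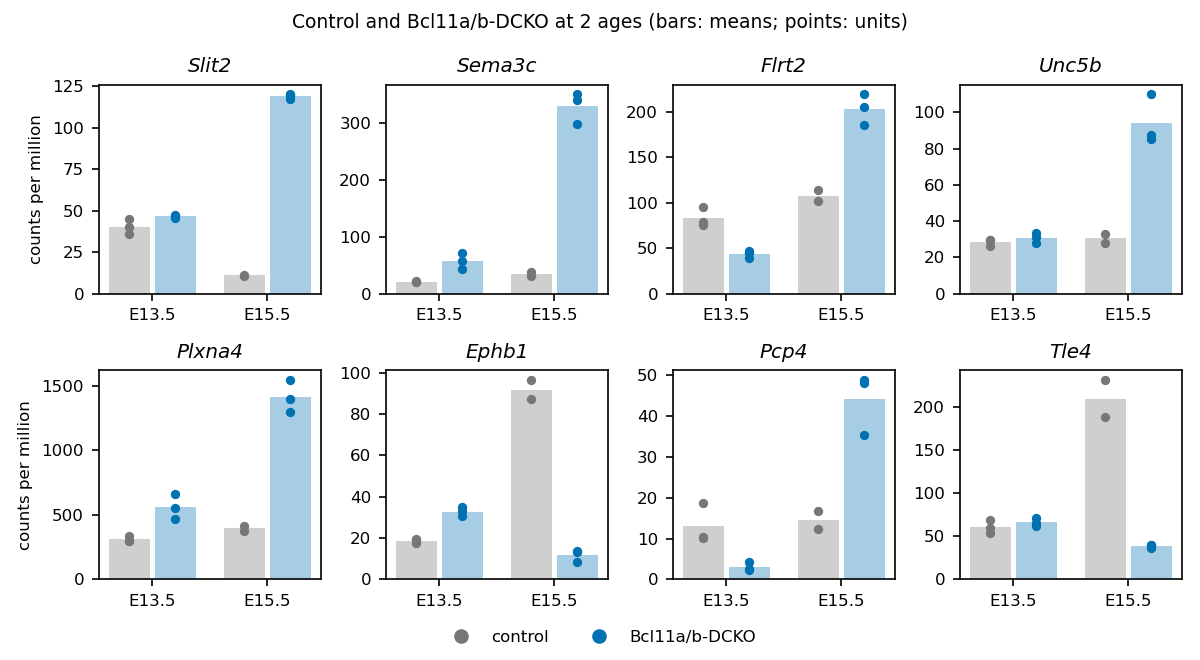
Mean (bars) and unit values (points) in CPM for 8 genes in control (grey) and Bcl11a/b-DCKO (blue) at E13.5 (3 and 3 units) and E15.5 (2 and 3 units). Flrt2, Ephb1 and Pcp4 change the order of the groups between the ages, and Tle4 has near means at E13.5 (61.0 and 66.1 CPM) and separate ones at E15.5.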

How the data were processed

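RNA was sequenced from dissected mouse cortex. The values are whole-number read counts per gene, deposited by the authors in a table for the embryonic ages. HISAT2 2.0.4, StringTie 1.3.0, edgeR and mm10 are named per the submitters' processing notes, while the counting settings are not given in the sources used. Newborn tables were not used here. All 16 embryonic units of 6 groups were fitted in 1 model with edgeR 4.0.16 (R 4.3.3; TMM, quasi-likelihood test, Benjamini-Hochberg adjustment over 14947 genes), without covariates. The steps were tested on simulated data. The interaction term compares the double mutant effect at the 2 ages. Folds against 0 counts use a floor of 3 counts over the group, and intervals (95%) cover counting error only. Exon sharing was read from GENCODE M21. Alternatives were DESeq2 1.42.0, RLE factors, no filter, fewer groups, unsummed libraries and left-out libraries. Named genes are the deleted genes, the 12 that rose and the 12 that fell most (at least 5 CPM in the higher group, no overlap), and called list members by p (at most 6 given with values per list). Members and lists were chosen with earlier results of these data known. Some list members are not reported here.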

Additional observations from a re-analysis of the deposited data

Results flagged for a closer look

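The double mutant effect differed between E15.5 and E13.5 for 579 genes by a test of the difference itself (the interaction term in edgeR's quasi-likelihood test, adjusted p at or under 0.05). Values below are the E15.5 effect minus the E13.5 effect on the log2 scale, for the genes named above or further below that changed at E15.5. Dusp4, Zbtb46, Igfbp3, Nin, Lpl and Lnx2 are described further below. They were chosen by their small p at E15.5, and the E15.5 effect enters the difference. The higher values at E15.5 were led by genes near 0 in 1 or more groups, whose size depends on the fit, and by Pcp4 and Slit2: 9.41 for Bves, 6.99 for Uncx, 6.72 for Gm15208, 3.73 for Pcp4, 3.22 for Slit2, 2.10 for Lhx9, 1.85 for Flrt2, 1.82 for Nkd1, 1.79 for Sema3c, 1.69 for Dusp4, 1.51 for Unc5b and 1.5 for Pou3f1. Smaller positive differences were 1.5 for Zbtb46, 1.47 for Bhlhe22, 1.22 for Neurod1, 1.14 for Chd5, 1.13 for Rbfox3, 1.07 for Cdh4, 1.02 for Ephb2, 0.98 for Plxna2, 0.74 for Ccdc85c, 0.67 for Meis2, 0.65 for Bcl7c and 0.51 for Efnb2.

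Lower values at E15.5 were -4.99 for Hs3st3b1, -4.82 for Kcnab1, -3.75 for Ephb1, -3.60 for Igfbp3, -3.39 for Fam84b, -3.18 for Tmtc1, -2.82 for Lhx5, -2.55 for Tle4, -2.39 for Rorb, -2.28 for Nin, -2.28 for Nr4a2, -2.18 for Lpl, -2.18 for Lnx2, -2.14 for Npr3, -1.81 for Zfpm2 and -1.77 for Rprm. The remaining negative differences were -1.70 for Cdh6, -1.65 for Foxp2, -1.55 for Mef2c, -1.48 for Neurog1, -1.35 for Foxp1, -1.31 for Ptprz1, -1.22 for Sparcl1, -1.0 for Eml1, -0.82 for Lpar1, -0.74 for Reln, -0.71 for Dab1, -0.68 for Dcc, -0.68 for Notch1, -0.65 for Ccnd2, -0.64 for Tubb3, -0.60 for Fezf2, -0.69 for Cdh11, -0.54 for Cdh2 and -0.41 for Plxna1. With 2 or 3 units in each group, no group was large enough for a test of single samples that stand apart.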

How the results depend on the processing

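The 2394 genes that differed between double mutant and control at E15.5 became 2259 to 2937 under RLE size factors, no filter on low counts, DESeq2, fewer groups in the fit and unsummed libraries. They became 1319 to 2368 when a library or unit was left out, with 1400 without control replicate 1 and 1319 without the summed control unit. In those fits the lone control unit is assumed to vary like the other groups. The 579 genes whose effect differed between the ages became 572 to 808 under the former settings and 295 to 588 with left-out libraries, with 309 without control replicate 1 and 295 without the summed control unit. The 809 that differed between the mutants became 769 to 1132 and 553 to 794. Of the 167 named genes that changed at E15.5, 116 passed in all 13 alternatives and 51 were lost at least once, all 51 in a fit with a library or unit left out. With every library in, 10 of the 51 were lost as well: P2ry12, Actl6a, Sema3d and Smarcd2 in DESeq2 and with no filter, Phlda3 in DESeq2, Neurog1, Ebf3, Zmat3, Cdh22 and Actl6a with E15.5 units only, these 5, Ccnb2, Sema3d and Smarcd2 with 2 groups only, and Ebf3 and Cdh22 with unsummed libraries. Emx1, which did not pass the test, ranged from -0.1524 to 0.001 with left-out libraries, with 0.001 without double mutant replicate 3. The median of all genes lay between -0.03 and 0.0 throughout. No paired analysis was possible because the double mutant and control libraries share no title number. With 2 control units, a p that misses the threshold does not show that values did not differ.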

Other observations

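Of the 20 genes with the smallest p in edgeR's quasi-likelihood test, 7 have been given already by role (Slit2, Ntsr1, Ephb1, Rprm, Dab1, Tle4 and Nkd1), as has Fignl2. Others among the 20 belong to no list above and were named after their values were seen. Lnx2, an E3 ubiquitin ligase of the Numb-binding LNX family, stood at 63.5 and 60.6 CPM in the control units and at 7.23, 7.26 and 8.21 CPM in the double mutant units (-3.03 ± 0.11, edgeR, adjusted p = 9.99e-10). Dusp4, a phosphatase that inactivates MAP kinases, stood at 69.05 and 75.4 CPM against 334, 343 and 339 CPM (2.23 ± 0.09, adjusted p = 3.77e-09). Igfbp3, a secreted binding protein of insulin-like growth factors, went from 111 and 143 CPM to 5.74, 8.00 and 8.57 CPM (-4.08 ± 0.18, adjusted p = 4.88e-09). The 3 were chosen by their small p, so the distance between their groups is no further result.

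Metabolic and cytoskeletal genes were also among the 20. Lpl, lipoprotein lipase, went from 84.1 and 64.5 CPM to 5.32, 5.78 and 5.00 CPM (-3.78 ± 0.19, edgeR, adjusted p = 1.76e-08). Gipr, the receptor of the incretin hormone GIP, went from 186 and 184 CPM to 5.95, 8.88 and 8.93 CPM (-4.53 ± 0.26, adjusted p = 4.84e-08). Nin, the centrosomal protein ninein, went from 321 and 330.2 CPM to 50.8, 52.9 and 61.8 CPM (-2.56 ± 0.14, adjusted p = 3.3e-08). All 3 lay between the groups in the Bcl11a-CKO, with means of 42.4, 93.1 and 263 CPM. Zbtb46, a zinc-finger factor best known from dendritic cells, was higher, at 4.80 and 4.45 CPM against 71.5, 67.2 and 67.3 CPM (3.89 ± 0.22, adjusted p = 4.29e-08).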
